A study of Homo sapiens with 6 samples.

Results

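PER1, PER2, PER3, CRY1, CRY2, BHLHE40, BHLHE41, DBP, TEF and HLF encode the repressors of the circadian clock and the transcription factors that carry its rhythm to other genes. These 10 genes were chosen by symbol, and each was read from 1 probe set that names no other gene, among 18417 genes measured in this way. Their RNA levels were compared in A375, an established human melanoma cell line carrying BRAF V600E, on 3 arrays after 24 h with vemurafenib at 10 µM and on 3 arrays after 24 h with vehicle (0.1% DMSO). Vemurafenib is an inhibitor of the mutant BRAF kinase. Each group's replicates came from different cell stocks handled on different days, all from this 1 line, and the labels name no other alleles or agents. The comparison asks which of these genes differed in RNA level between drug and vehicle.

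The mammalian clock is a feedback loop. CLOCK or NPAS2, paired with BMAL1, binds E-box sequences and switches on the PER and CRY genes, whose proteins return to the nucleus and block that activation. BHLHE40 and BHLHE41, also called DEC1 and DEC2, are basic helix-loop-helix repressors that bind the same E-boxes. DBP, TEF and HLF are the PAR group of bZIP activators, which bind D-box sequences, and NFIL3 represses from those same D-boxes. The labels' protocols name no step that sets the cells to 1 clock phase, and each group was taken at 1 time. A change of mean level and a shift of phase therefore cannot be told apart.

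The deposited values are log2 levels, with array medians from 7.69 to 7.73. Within a group, arrays correlated at 0.9936 or more over all probe sets, and between groups at 0.9829 or less. DUSP6, a phosphatase induced by ERK, averaged 7.0 ± 0.03 with vemurafenib and 11.21 ± 0.04 with vehicle (SD, n = 3), and SPRY4, an ERK feedback inhibitor, 6.69 ± 0.17 with vemurafenib and 10.44 ± 0.14 with vehicle (SD, n = 3). Among 10 measured pigment cell markers, 6 lay above the dimmest 25% of genes (log2 level 6.87) in both groups, including MITF and SOX10, whereas PMEL, MLANA, TYR and TYRP1 did not. So did 3 of 5 keratinocyte, 4 of 6 fibroblast, 1 of 5 endothelial and 2 of 5 leukocyte markers. The count therefore does not set the pigment cell list apart from the keratinocyte and fibroblast lists. Averaged over each list, the log2 level per array ran as follows. The 10 pigment cell markers lay between 8.86 and 8.95 with vemurafenib and between 8.45 and 8.51 with vehicle. The 5 keratinocyte markers lay between 6.98 and 7.21 with vemurafenib and between 7.04 and 7.17 with vehicle. The 6 fibroblast markers lay between 7.49 and 7.70 with vemurafenib and between 7.14 and 7.31 with vehicle. Of these, DCN (log2 change 1.46) and LUM (1.13) rose, while COL1A1 (0.01), COL1A2 (-0.15), COL3A1 (-0.04) and PDGFRA (-0.24) did not pass. The 5 endothelial markers lay between 6.45 and 6.59 with vemurafenib and between 6.64 and 6.80 with vehicle, and the 5 leukocyte markers between 7.38 and 7.40 with vemurafenib and between 7.21 and 7.29 with vehicle. Among the leukocyte markers CD68 rose (1.01) and CD14 fell (-0.32), and PTPRC, the defining one, averaged 4.65 with vemurafenib and 4.53 with vehicle. The part of these markers in the results was not tested.

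The promoter windows of 5 of the genes are shown because they hold, or lack, the elements through which the clock is known to act. They are the largest riser BHLHE41 and its relative BHLHE40, which did not pass the test, then DBP and PER3, which rose, and CRY1, which fell. Each window runs 5′ to 3′ from 250 bases before to 50 bases from the start onward, is credited to RefSeq and is on GRCh38.p14. The windows are BHLHE41 at chr12:26124988-26125287 (minus strand), BHLHE40 at chr3:4979187-4979486 (plus strand), DBP at chr19:48637330-48637629 (minus strand), the upstream of the PER3 starts at chr1:7784041-7784340 (plus strand) and CRY1 at chr12:107093500-107093799 (minus strand). Capitals mark matches, on either strand, to the E-box CACGTG, the E′-box CACGTT, the D-box TTATGTAA, its palindromic form TTACGTAA, the cyclic AMP element TGACGTCA or the core CATGTG that MITF and related factors bind.
BHLHE41: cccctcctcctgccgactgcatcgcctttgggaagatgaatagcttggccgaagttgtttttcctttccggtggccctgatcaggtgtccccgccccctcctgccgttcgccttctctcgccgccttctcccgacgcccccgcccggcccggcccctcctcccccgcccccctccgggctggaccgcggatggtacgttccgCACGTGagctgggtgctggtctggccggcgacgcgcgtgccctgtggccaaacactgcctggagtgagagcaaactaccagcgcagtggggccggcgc
BHLHE40: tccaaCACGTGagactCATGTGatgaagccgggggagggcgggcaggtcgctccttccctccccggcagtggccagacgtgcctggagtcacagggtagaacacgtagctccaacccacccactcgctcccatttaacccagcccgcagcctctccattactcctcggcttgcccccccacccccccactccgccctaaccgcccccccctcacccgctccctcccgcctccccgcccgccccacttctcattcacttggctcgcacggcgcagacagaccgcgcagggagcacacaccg
DBP: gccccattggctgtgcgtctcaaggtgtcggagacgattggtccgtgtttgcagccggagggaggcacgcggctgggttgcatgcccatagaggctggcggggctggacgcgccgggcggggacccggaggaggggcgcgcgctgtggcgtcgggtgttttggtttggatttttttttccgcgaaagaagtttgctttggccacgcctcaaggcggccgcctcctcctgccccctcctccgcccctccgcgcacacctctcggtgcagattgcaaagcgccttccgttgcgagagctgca
PER3: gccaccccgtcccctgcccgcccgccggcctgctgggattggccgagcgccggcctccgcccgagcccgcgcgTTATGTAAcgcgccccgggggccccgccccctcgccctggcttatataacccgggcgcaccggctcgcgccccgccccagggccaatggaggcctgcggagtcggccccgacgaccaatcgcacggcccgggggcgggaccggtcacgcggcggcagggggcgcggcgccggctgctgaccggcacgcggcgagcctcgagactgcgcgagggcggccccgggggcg
CRY1: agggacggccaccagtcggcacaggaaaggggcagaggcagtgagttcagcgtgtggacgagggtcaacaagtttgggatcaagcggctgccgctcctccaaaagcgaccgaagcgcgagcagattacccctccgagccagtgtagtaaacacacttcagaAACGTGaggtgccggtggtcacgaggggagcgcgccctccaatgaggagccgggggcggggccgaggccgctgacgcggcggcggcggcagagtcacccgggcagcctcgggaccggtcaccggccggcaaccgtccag

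All 10 genes had a window, 14 windows in all because PER3, CRY2, TEF and HLF have several starts, and the PER3 windows overlap. The E-box stood in 5 of the 14 windows, those of PER1, BHLHE40, BHLHE41 and both of TEF, against 7.26% of all 35116 promoter windows of that length. In BHLHE41 it began 48 bases before the start, in PER1 173 bases before it and in BHLHE40 245 bases before it. The E′-box was present in PER2, CRY1 and 1 window of CRY2 (5.34% of all windows). The D-box letters occurred in PER3 alone of the 10 genes (0.886% of all windows), 177 bases before its upstream start, and the palindromic form in PER2 alone (0.125%). The cyclic AMP element stood in 1 window of HLF (1.85%), and the CATGTG core in CRY2, HLF and BHLHE40 (11.1%). The GGGCGG core bound by Sp1, not capitalised in the sequences, was present in 13 of 14 windows, against 45.0% of all windows, and in HLF it shared a base with the CATGTG core. DBP held none of these motifs other than GGGCGG in its 300 bases. Sequence outside the windows was not searched, in DBP or any other gene. Genes with the E-box were found both among those that rose (PER1, BHLHE41) and among those that did not pass (TEF, BHLHE40). These matches are letters in a window and were not tested as binding sites.

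**Figure D1:**
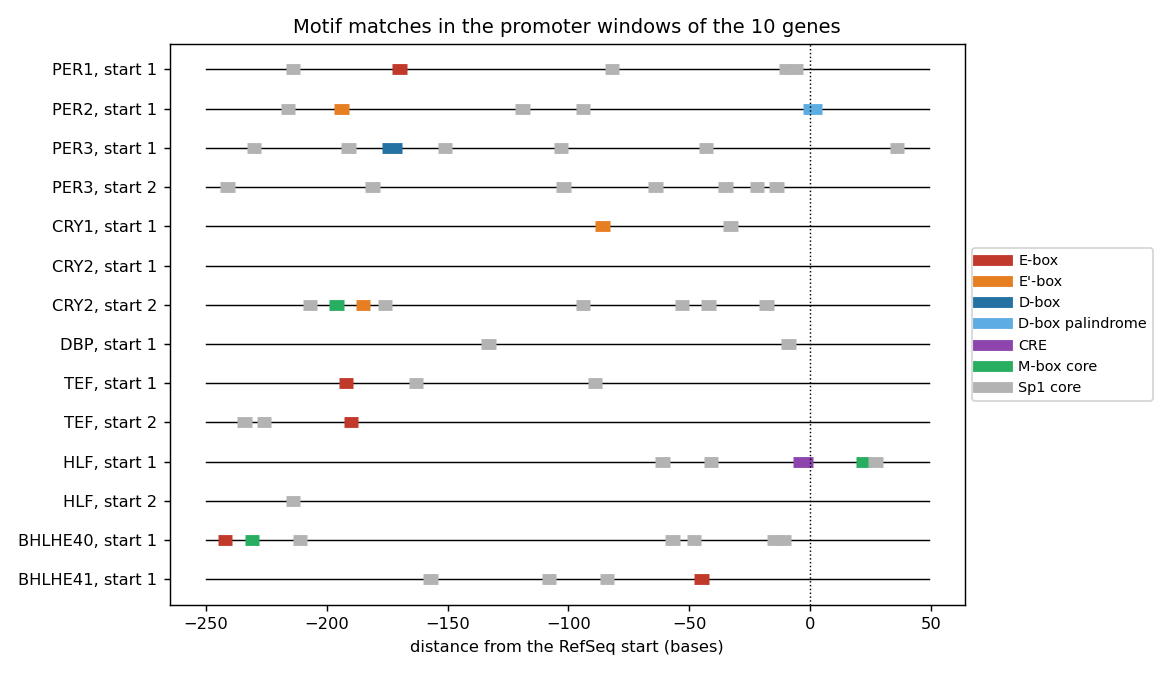
Motif matches (coloured blocks) in the 14 promoter windows of the 10 genes, drawn by distance from the RefSeq start in bases, with the dotted line at the start. The E-box lies 48 bases before the start of BHLHE41 and 245 bases before that of BHLHE40, and DBP holds only Sp1 cores.

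With vemurafenib, 5 of the 10 genes rose (PER1, PER3, DBP, HLF and BHLHE41), 1 fell (CRY1) and 4 did not pass the threshold (PER2, CRY2, TEF and BHLHE40). BHLHE41 and DBP changed most, by 2.89-fold and 1.88-fold. The test was limma over all 18417 genes with a Benjamini-Hochberg adjusted p threshold of 0.05, which 45.5% of all genes passed, 23.2% as rises and 22.2% as falls. With each array centred on the median of the genes tested, 9312 genes passed, 3682 as rises and 5630 as falls, against 4281 rises and 4090 falls as deposited. A change of at least 2-fold was reached by BHLHE41 alone of the 10, and by 5.69% of all genes, 3.07% as rises. The median log2 change of the 10 genes was 0.21, against -0.05 over all genes, and their median absolute change was 0.24 against 0.20. The vemurafenib arrays lay wholly above the vehicle arrays for 6 of the 10 genes (26.9% of all genes) and wholly below for 2 (28.5%), which makes 8 of 10 against 55.4% of all genes. In these bulk samples, less RNA per cell and fewer cells that make it cannot be told apart.

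**Figure D2:**
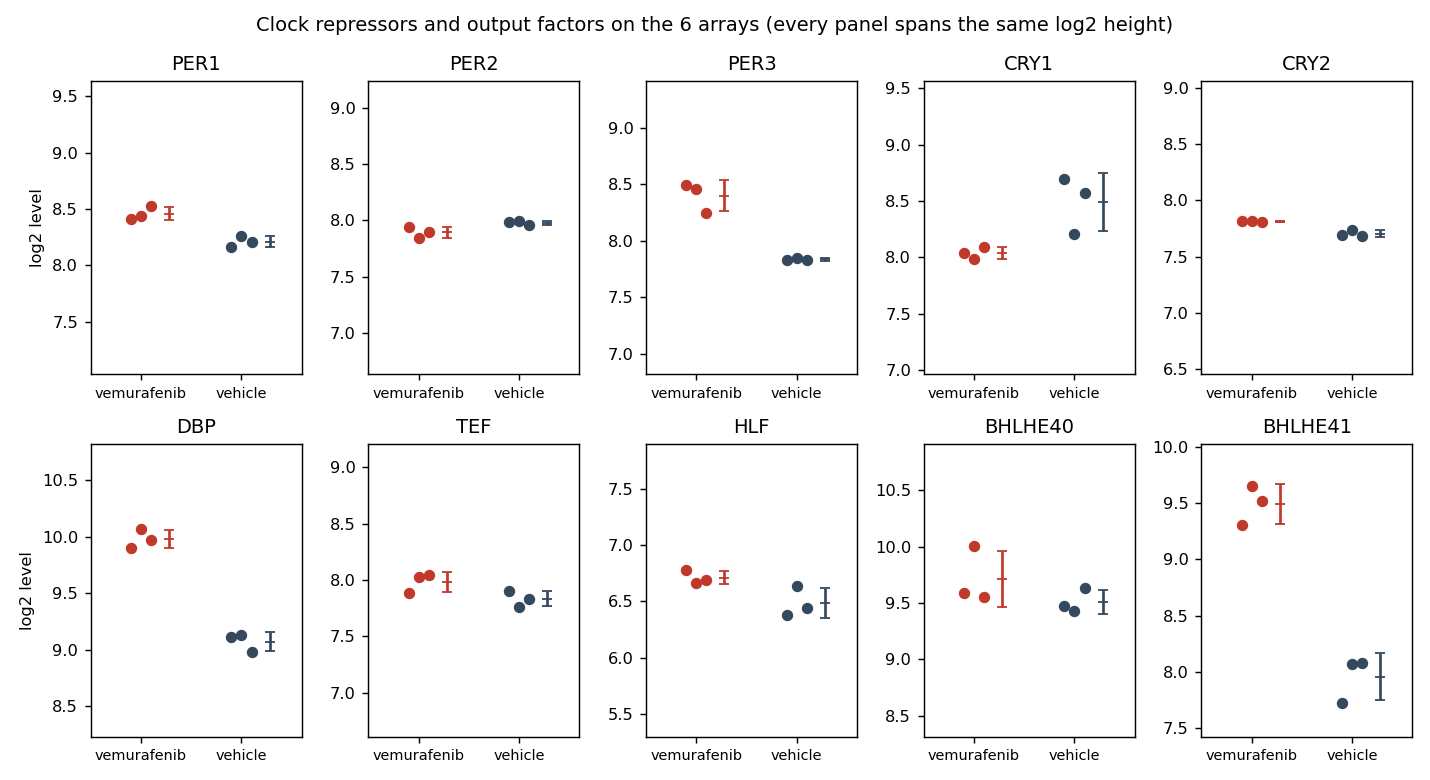
Log2 level of each of the 10 genes on the 3 vemurafenib arrays (red, left) and the 3 vehicle arrays (dark blue, right), with the mean and SD beside the points and the same height of log2 units in each panel. The groups are widest apart in BHLHE41 (means 9.49 and 7.96) and DBP (9.98 and 9.07), and overlap in TEF and BHLHE40.

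**Figure D3:**
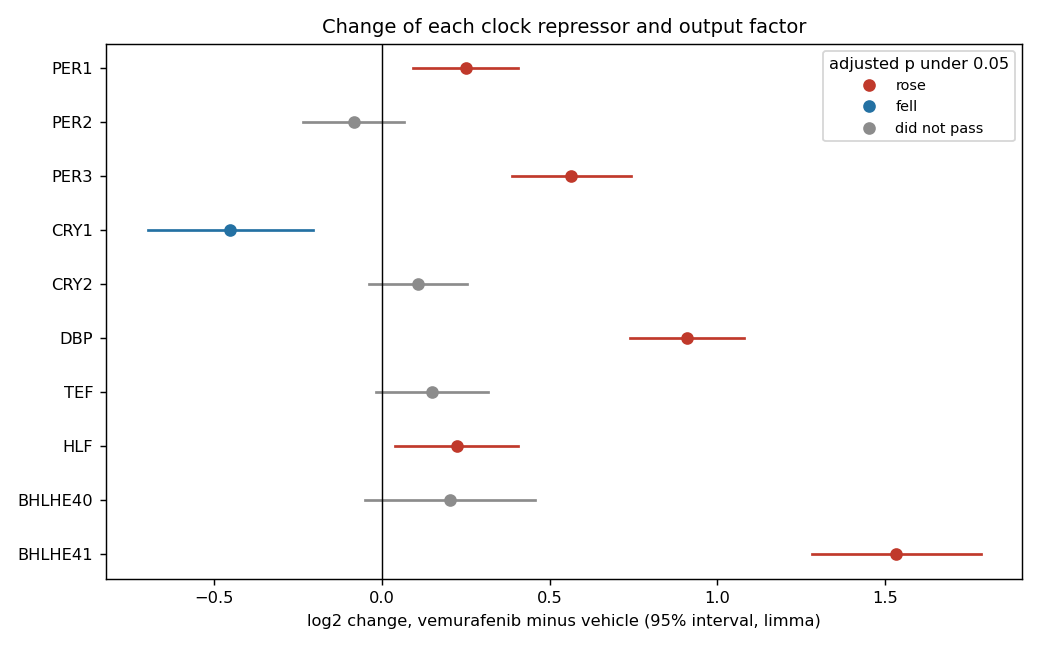
Log2 change of each gene, vemurafenib minus vehicle, with its 95% interval from limma. BHLHE41 stands at 1.53 and DBP at 0.91, CRY1 is the only one of the 10 that fell, at -0.45, and 4 intervals in grey cross 0.

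**Figure D4:**
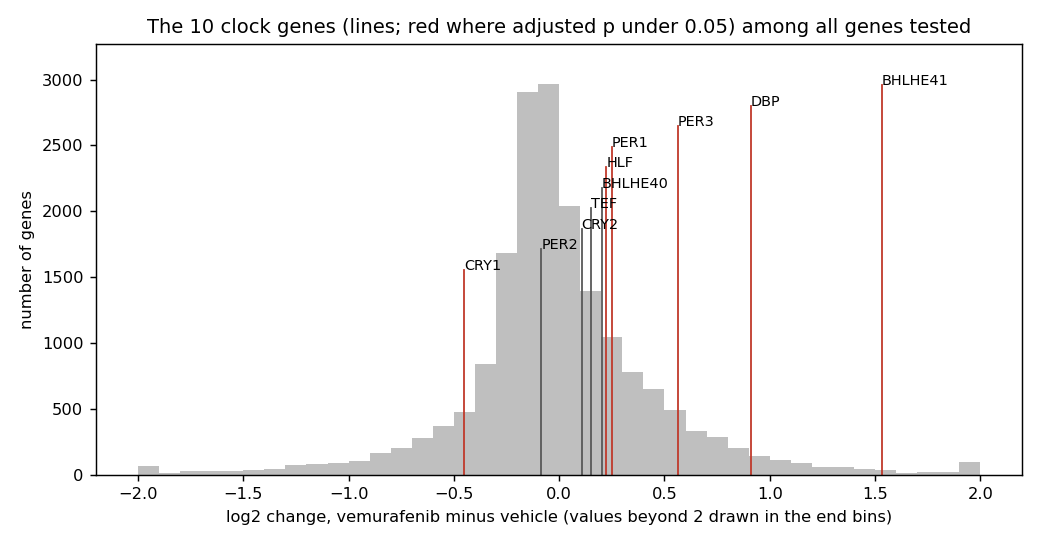
Number of genes (grey bars) by log2 change, vemurafenib minus vehicle, over the 18417 genes tested, with a line at the change of each of the 10 genes. BHLHE41 lies in the thin upper tail, whereas PER2, CRY2, TEF, BHLHE40, HLF and PER1 lie among the bulk of genes.

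The 3 PER genes did not move alike. PER3, the PER family member which in mice is the least needed for the rhythm itself, had log2 levels of 8.50, 8.46 and 8.24 on the vemurafenib arrays, against 7.83, 7.85 and 7.83 on the vehicle arrays. Every vemurafenib array was above every vehicle array, by at least 0.40, and the vehicle arrays lay within 0.02 of each other. The log2 change was 0.56 (SE 0.08, 95% interval 0.39 to 0.74, limma adjusted p 0.000143), or 1.48-fold.

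PER1, a core repressor that also responds to cyclic AMP and glucocorticoid signals, stood at 8.41, 8.44 and 8.53 with vemurafenib, against 8.16, 8.26 and 8.21 with vehicle. The groups were apart by 0.15, a small gap beside that of PER3. The change was 0.25 (SE 0.07, limma adjusted p 0.0136), and 41.6% of all genes had a larger absolute change. Without vehicle replicate 1 the change was 0.22 and the limma adjusted p 0.0634, within a range of 0.00362 to 0.0634 over the alternatives.

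PER2, the other core repressor of the family, had log2 levels of 7.94, 7.84 and 7.90 with vemurafenib, against 7.98, 7.99 and 7.96 with vehicle. The vemurafenib arrays were all lower, but by as little as 0.02. The change of -0.08 (SE 0.07, 95% interval -0.23 to 0.06) did not pass (limma adjusted p 0.334).

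The CRY proteins are the strong repressors of the loop, and only CRY1 passed. CRY1 stood at 8.04, 7.98 and 8.10 with vemurafenib, against 8.70, 8.21 and 8.57 with vehicle. All vemurafenib arrays were lower, and vehicle replicate 2 was the closest to them, 0.11 above the highest of them. CRY1 fell by 0.45 on the log2 scale (SE 0.11, 95% interval -0.70 to -0.21, limma adjusted p 0.00622), 1.37-fold, and the change ran from -0.60 to -0.35 when arrays were left out in turn.

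CRY2 was tightly measured, at 7.81, 7.82 and 7.80 with vemurafenib, against 7.69, 7.74 and 7.68 with vehicle. The groups did not overlap, being 0.07 apart. Its change of 0.11 (SE 0.07, 95% interval -0.04 to 0.25) did not pass limma (adjusted p 0.214), whose estimate of spread borrows from all genes.

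Of the DEC repressors, BHLHE41 rose more than any other of the 10 genes. Its log2 levels were 9.31, 9.65 and 9.52 with vemurafenib, against 7.72, 8.07 and 8.08 with vehicle. The lowest vemurafenib array was 1.22 above the highest vehicle array, whereas arrays within a group differed by at most 0.36. The change was 1.53 (SE 0.11, 95% interval 1.28 to 1.78, limma adjusted p 8.695e-07), 2.89-fold, and 1.77% of all genes had a larger absolute change.

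BHLHE40, the other DEC gene and one that hypoxia is known to induce, stood at 9.59, 10.00 and 9.55 with vemurafenib, against 9.47, 9.43 and 9.63 with vehicle. Vemurafenib replicate 2 was high and the other vemurafenib arrays lay below vehicle replicate 3. The change of 0.20 (SE 0.12, 95% interval -0.05 to 0.46) did not pass (limma adjusted p 0.173), and without vemurafenib replicate 2 it was 0.06.

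Of the PAR bZIP factors, DBP changed most. DBP had log2 levels of 9.90, 10.06 and 9.97 with vemurafenib, against 9.11, 9.13 and 8.97 with vehicle. The groups were 0.78 apart, and arrays within a group differed by at most 0.16. The change was 0.91 (SE 0.08, 95% interval 0.74 to 1.08, limma adjusted p 2.412e-06), 1.88-fold, and 6.87% of all genes had a larger absolute change.

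TEF, first described as a factor of pituitary thyrotrophs, stood at 7.88, 8.02 and 8.04 with vemurafenib, against 7.90, 7.76 and 7.83 with vehicle. Vemurafenib replicate 1 lay below vehicle replicate 1, so the groups overlapped. The change of 0.15 (SE 0.08, 95% interval -0.02 to 0.32) did not pass (limma adjusted p 0.133).

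HLF, known from a fusion with TCF3 in leukaemia, stood at 6.78, 6.67 and 6.69 with vemurafenib, against 6.38, 6.64 and 6.44 with vehicle. Both group means were as low as the dimmest 25% of genes, though above the olfactory receptor median of 5.52, and the groups were apart by 0.02. The change was 0.22 (SE 0.08, limma adjusted p 0.0474). The call was lost in 11 of 16 alternatives, with a range of limma adjusted p from 0.00175 to 0.181. Among these were the omission of vemurafenib replicate 1 (limma adjusted p 0.154), 2 (0.0650) or 3 (0.0680) and of vehicle replicate 1 (0.181) or 3 (0.132).

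Related genes were compared through the difference of their log2 changes within arrays, in 8 pairs. In 7 of the 8 the vemurafenib and vehicle arrays did not overlap, and each of these had an exact 2-sided permutation p of 0.1, the smallest that 3 against 3 arrays allow, or 0.114 after Benjamini-Hochberg adjustment over the pairs. The sizes are therefore a description. Of all genes taken singly, 55.4% did not overlap, and no such share was computed for pairs. Several pairs share a gene, so the 8 are not independent. BHLHE40 minus BHLHE41 was -1.33 (SE 0.15, 95% interval -1.74 to -0.92). DBP changed by 0.76 more than TEF (95% interval 0.55 to 0.97) and by 0.69 more than HLF (0.38 to 0.99). Whether the HLF probe set read above background was not established, which limits both differences that involve HLF. PER1 minus PER2 was 0.33 (0.18 to 0.49), PER2 minus PER3 -0.65 (-0.87 to -0.42) and PER1 minus PER3 -0.32 (-0.64 to 0.01). CRY1 minus CRY2 was -0.56 (-1.02 to -0.10). TEF minus HLF, the pair whose arrays overlapped, was -0.07 (-0.47 to 0.32, exact permutation p 0.5), an interval that leaves room for a difference of either sign.

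Around these 10 genes, 26 of 32 other listed clock genes were measured in the same way, of which 7 rose, 4 fell and 15 did not pass (42.3% passed, against 45.5% of all genes). Their median log2 change was -0.02. These genes were brighter than most, with a median level of 10.29 with vemurafenib and 10.19 with vehicle, against 8.40 and 8.32 over all genes. Brighter genes passed more often: without the dimmest 50% of genes, 5960 of 9208 did. 

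Among the 4 activators, 1 fell and 1 rose (50% passed, against 45.5% of all genes). NPAS2, which can take the place of CLOCK, stood at 10.37, 10.41 and 10.34 with vemurafenib, against 12.00, 12.05 and 12.07 with vehicle. It was 3.17-fold lower (log2 change -1.67, SE 0.07, limma adjusted p 9.627e-09), and the vemurafenib arrays all lay far below the vehicle arrays. BMAL1, a partner of CLOCK and NPAS2, stood at 9.04, 8.95 and 9.05 with vemurafenib, against 8.24, 8.19 and 8.34 with vehicle. Its change was 0.76 (SE 0.07, limma adjusted p 6.47e-06). CLOCK averaged 10.45 ± 0.11 with vemurafenib and 10.64 ± 0.09 with vehicle (SD, n = 3; limma adjusted p 0.0853). BMAL2, a relative of BMAL1, averaged 8.15 ± 0.13 with vemurafenib and 8.27 ± 0.16 with vehicle (SD, n = 3; limma adjusted p 0.314).

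In the second loop, where ROR receptors activate and REV-ERB receptors repress BMAL1, 3 of 5 measured genes rose and 0 fell. These are 60% of the list, against 45.5% of all genes that passed in either direction. Without the dimmest 50% of genes, 2 of the 4 left passed, against 5960 of all 9208 genes. RORB averaged 10.30 ± 0.08 with vemurafenib and 9.14 ± 0.11 with vehicle (SD, n = 3), a change of 1.16 (limma adjusted p 5.143e-07). RORA rose by 0.45 (limma adjusted p 0.0055), with both means, 6.84 and 6.39, as low as the dimmest 25% of genes. NFIL3, the repressor at D-boxes, stood at 9.10, 9.55 and 9.29 with vemurafenib, against 8.52, 8.37 and 8.65 with vehicle, a change of 0.80 (SE 0.11, limma adjusted p 0.000134). NFIL3 rose beside DBP, which acts on the same element in the opposite sense. The REV-ERB genes did not pass: NR1D1 changed by -0.10 (95% interval -0.27 to 0.07, limma adjusted p 0.317) and NR1D2 by -0.06 (-0.29 to 0.16, limma adjusted p 0.644).

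Of 17 measured kinases, ubiquitin pathway genes and cofactors of the clock, 3 rose and 3 fell (35.3% passed, against 45.5% of all genes). Without the dimmest 50% of genes, 5 of the 14 left passed, against 5960 of all 9208 genes. The largest rise was that of USP2, a deubiquitinase that acts on clock proteins, which averaged 9.07 ± 0.10 with vemurafenib and 7.64 ± 0.09 with vehicle (SD, n = 3), 2.69-fold higher (limma adjusted p 1.081e-07). CSNK1A1, a casein kinase of the family that phosphorylates PER proteins, rose by 0.32. TIMELESS, which binds PER and CRY proteins and also protects replication forks, changed by -0.79, and the deubiquitinase USP7 by -0.44.

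**Figure D5:**
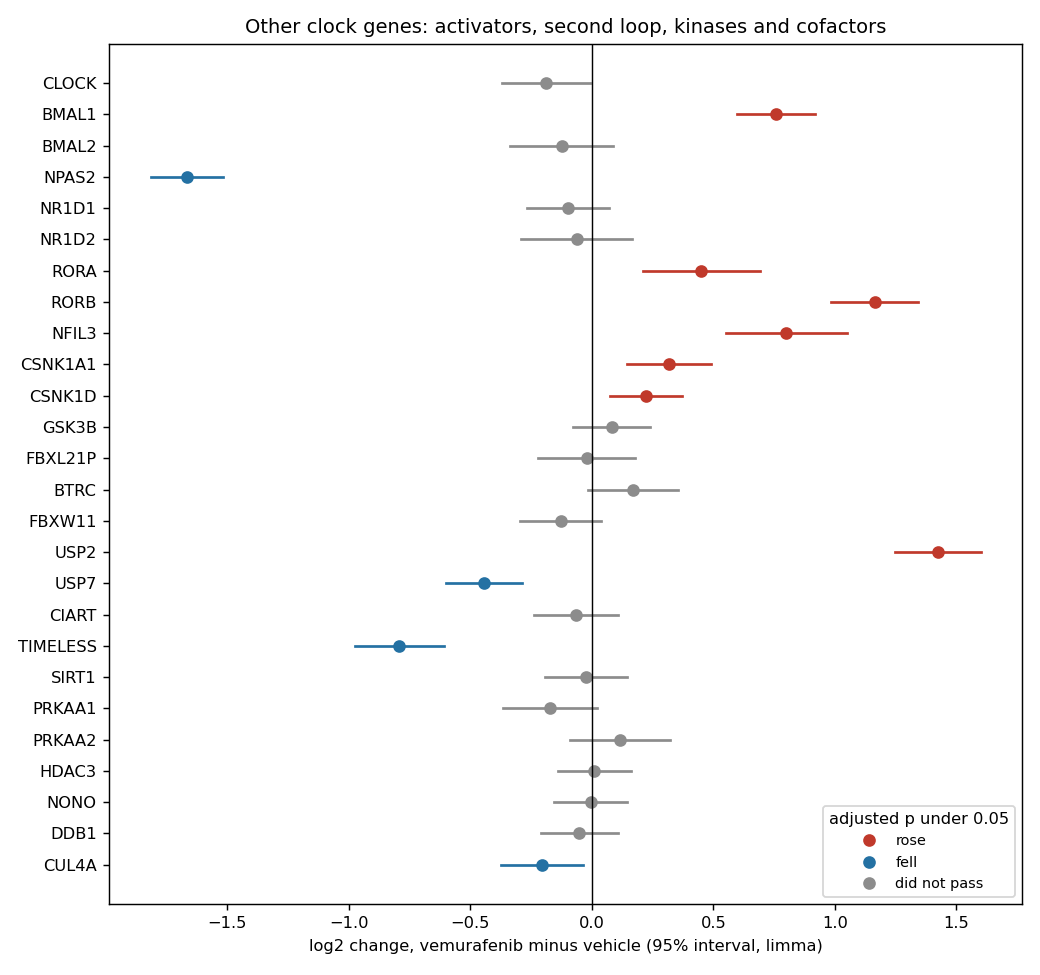
Log2 change, vemurafenib minus vehicle, with its 95% interval from limma, for the 26 other clock genes measured, in the order activators, second loop, then kinases, ubiquitin pathway genes and cofactors. NPAS2 lies farthest to the left at -1.67, and USP2, RORB, NFIL3 and BMAL1 lie to the right at 1.42, 1.16, 0.80 and 0.76.

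Of 13 widely cited clock-controlled genes 5 rose and 4 fell (69.2% passed, against 45.5% of all genes), with a median log2 change of -0.04, against -0.05 over all genes. ID2, an inhibitor of helix-loop-helix factors, rose by 2.79 and TSC22D3, a glucocorticoid-induced gene, by 0.81. WEE1, a kinase that holds back mitosis, changed by -1.18 and NAMPT, the rate-limiting enzyme of NAD salvage, by -0.75. Of 10 genes that act upstream of PER1 or respond with it, PER1 included, 6 rose and 1 fell (70.0% passed, against 45.5% of all genes). The glucocorticoid receptor gene NR3C1 rose by 0.63, the kinase gene SGK1 by 0.49, the salt-inducible kinase gene SIK3 by 0.45 and CREB1, the cyclic AMP response factor, by 0.26. The faller was CREM (-0.25, limma adjusted p 0.0483). That count of 7 was 4 without vemurafenib replicate 1 and 4 without vehicle replicate 1. Without the dimmest 50% of genes, 7 of 11 clock-controlled genes and 5 of 8 of these passed, against 5960 of all 9208 genes.

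Among 10 further genes of helix-loop-helix factors and E-box binders, 6 rose and 1 fell (70.0% passed, against 45.5% of all genes), with a median log2 change of 0.59, against -0.05 over all genes. ID3 rose by 1.39 and ID1, its relative, by 0.83, and HEY1, a Notch target gene, by 0.76. MITF, the pigment cell factor that binds the CATGTG core, rose by 0.75, and the faller was the Notch target HES1 (-0.74). Without the dimmest 50% of genes, 5 of the 8 genes left in this list passed, against 5960 of all 9208 genes.

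The genes most like BHLHE41 and DBP were sought by the Euclidean distance between profiles of 6 array values, each less its own mean. For BHLHE41 they were PCDHB18P (distance 0.27), SLFN5 (0.27) and TMPRSS5 (0.28), with log2 changes of 1.57, 1.41 and 1.62. For DBP they were MAP2 (0.09), CTNNA3 (0.10) and EBI3 (0.13), with changes of 0.87, 0.87 and 0.89, of which MAP2 and CTNNA3 had both means as low as the dimmest 25% of genes. With 6 arrays in 2 groups, the likeness is mostly that of the change itself.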

How the data were processed

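RNA of A375 cells was profiled on single-colour Affymetrix arrays from 250 ng of total RNA, per the labels' protocols. The authors deposited 1 log2 level for each of 33297 probe sets on the 6 arrays, with no value missing. Per the submitters' processing notes the tools were RMA and Partek, with no version given. RMA in its usual form removes background, gives all arrays the same distribution and then summarizes probes. With the distributions made equal, a change in total RNA per cell would not show. Large changes may also be compressed on arrays, which was not tested. The level of summarization and the build: not given in the sources used here. The precision is set by the number of arrays, since there is no read depth.

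Gene names came from the 2016 platform annotation, in which 19460 probe sets had 1 symbol, 1754 several and 12083 none. Per gene the set with the highest mean was kept (18417 genes), and each of the 10 genes had 1. limma 3.58.1 in R 4.3.3 was fitted with group as the only term (lmFit, eBayes, 2-sided, Benjamini-Hochberg over all genes, threshold 0.05), after tests on simulated data. A fold is 2 raised to the absolute log2 change. Differences between related genes had an exact permutation test, with 95% intervals from the pooled spread of both groups. Motifs were searched in RefSeq promoter windows on both strands.

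The genes and lists were chosen with earlier results of these data known. Of the other lists, all activators and second-loop genes were named, and up to 4 members of each remaining list by size of change among those that passed, with exceptions in direction. DUSP6 and SPRY4 were named as a check of drug action, and the 3 nearest profiles for the 2 genes that changed most. Alternatives were replicate blocks (statmod 1.5.0), centring, quantile normalization, filters on dim genes, other uses of probe sets, an intensity trend, array weights, a stricter threshold (0.01) and leaving out each array. Centring on the median of the genes tested was chosen after seeing the data.

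The series' text pairs dishes by lettered batch, but the labels give the letter of 1 array. The replicate numbers were not taken to pair the arrays, so the main fit leaves that pairing out. Figures used Python 3.11.15 and matplotlib 3.10.9.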

Additional observations from a re-analysis of the deposited data

How the results depend on the processing

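BHLHE41, DBP, PER3 and CRY1 kept their direction and stayed past the threshold in every alternative that tested them, and PER2, CRY2, TEF and BHLHE40 stayed short of it in those that tested them. BHLHE41 ran from 1.41 to 1.63, DBP from 0.85 to 0.95, PER3 from 0.50 to 0.64 and CRY1 from -0.60 to -0.35. PER2 ran from -0.15 to -0.06 (lowest limma adjusted p 0.0776), CRY2 from 0.045 to 0.12, TEF from 0.072 to 0.20 and BHLHE40 from 0.060 to 0.28. Without the dimmest 50% of genes, only DBP, BHLHE40 and BHLHE41 were tested, so that 2 passed, 2 rose and 0 fell. Of all 9208 genes left in that setting, 5960 passed, 2990 as rises and 2970 as falls. At a threshold of 0.01, 3 of the 10 genes rose, since PER1 (0.25) and HLF (0.22) no longer passed. There 3 genes of the list upstream of PER1 passed, and 6190 of all 18417 genes, 3374 as rises. With arrays left out in turn, 3 to 5 of the 10 genes rose, against 3769 to 4130 of all genes. In the same fits 4 to 7 genes of the list upstream of PER1 passed, against 7218 to 8326 of all genes. With arrays left out, PER1 ran from 0.22 to 0.27 and HLF from 0.17 to 0.30. Over all alternatives that tested them, PER1 ran from 0.19 to 0.27 and HLF from 0.16 to 0.31. HLF also missed the threshold at 0.22 with every probe set tested and with an intensity trend and robust prior, and at 0.16 with arrays centred on the median of the genes tested. The cause of these losses was not tested. With the replicate block, fixed or random, HLF stood at 0.22 and did not pass (limma adjusted p 0.0850 and 0.0594); it changed the call of no other of the 10 genes, and 7606 and 7923 genes passed. Deviations of same-numbered arrays correlated at 0.14, -0.18 and -0.25 over genes, so the numbers were not taken to pair the arrays. The replicate block therefore cannot show whether the calls would hold with the lettered batches as the block. Vemurafenib replicates 1, 2 and 3 correlated best with vehicle replicates 1, 3 and 2 (0.14, 0.22 and 0.28), a hint from the data that no label states and that no fit used. Differences between related genes were recomputed in 7 alternatives. The mean of all probe sets could change none of them, since each of the 10 genes had 1 probe set. The rest left out 1 array each, which moves a group mean only within the spread of its arrays. The sign could therefore not change in the pairs whose arrays did not overlap. The difference of TEF and HLF, whose arrays overlapped, ran from -0.19 to 0.01 and so changed sign. HLF and RORA, in the dimmest 25% of genes, were not shown to be above background.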
